A study of Homo sapiens with 4 samples.

Results

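Nuclear hormone receptors were followed as a gene family in JJ012 cells, an established human chondrosarcoma line, after exposure to Antcin K. The 46 genes were taken by symbol from a written list of the family, and each matched 1 row among the 61806 genes of the deposited table. Antcin K, a triterpenoid with a steroid-like ring skeleton from the medicinal fungus Antrodia cinnamomea, was given at 10 µM for 24 h to 2 samples. The other 2 samples were untreated JJ012 cells, and the labels name no vehicle for them. All 4 samples are labelled wild type and come from 1 cell line, and whether samples of a group were grown as separate cultures is not stated. The p-values below thus rest on sample-to-sample spread that may be technical only.

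Nuclear receptors are transcription factors with a zinc-finger DNA-binding domain and, in most members, a ligand-binding domain that accepts small lipophilic molecules. Steroids, thyroid hormone, retinoic acid, vitamin D, oxysterols, bile acids, fatty acids and heme are among the ligands, while members without an established natural ligand are called orphan receptors. Classical steroid receptors wait on HSP90 chaperones and act as homodimers, and many others pair with a retinoid X receptor and exchange corepressors for coactivators when ligand binds. In cartilage, retinoic acid, thyroid hormone, vitamin D and glucocorticoid signals all act on chondrocyte growth and maturation.

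The libraries held 20690078 and 16911257 counted fragments for Antcin K replicates 1 and 2, and 26270686 and 18757254 for untreated replicates 1 and 2. Genes of the mitochondrial genome accounted for 13.5% and 19.3% of all counts with Antcin K and 26.0% and 12.9% without it. The untreated libraries were the less alike pair, since 16.2% of all tested genes differed by over 2-fold between them, against 6.94% between the Antcin K libraries. Of 12 cartilage markers, 8 had at least 10 counts over the 4 libraries. SOX9, the master factor of cartilage, had 1.38 and 2.65 FPKM (fragments per kilobase of exon, scaled to the library total) with Antcin K, against 5.45 and 1.97 FPKM untreated. COL2A1, the type II collagen gene, had no count in any library, and ACAN, the aggrecan gene, had 5 in all. Epithelial markers summed to 82.9 and 97.6 FPKM with Antcin K, against 188 and 153 FPKM untreated, with KRT18 alone at 70.1 and 86.8 FPKM with Antcin K, against 180 and 140 FPKM untreated. KRT8, the other abundant one, had 12.4 and 10.6 FPKM with Antcin K, against 7.63 and 12.6 FPKM untreated. Of those 6 markers 4 had at least 10 counts, while EPCAM, the defining adhesion molecule, had 2 and 2 counts with Antcin K, against 0 and 1 untreated. The part of these shifts in the results below was not tested, and in such bulk RNA fewer cells of a type and less RNA per cell cannot be told apart.

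JJ012 cells carried a small set of abundant receptors and many that were barely detected. Of the 46 genes, 32 had at least 10 counts over the 4 libraries, 9 had between 1 and 9 counts, and 5 had none (THRB, PPARG, RORB, NR2E1 and NR0B1). A count of 0, read as up to 3 counts of the library, allows up to 0.145 and 0.177 CPM (counts scaled to a fixed library total) in the Antcin K libraries and 0.114 and 0.160 CPM in the untreated ones, which covers counting error only. A mean above 1 FPKM over all libraries was reached by 17 genes, and 4 of these were above 10 FPKM. Those 4 made up 80.5% and 77.6% of the family's summed FPKM with Antcin K, and 67.5% and 79.2% in untreated cells. NR1H2, the gene of the oxysterol sensor LXRβ, stood highest at 60.2 and 52.9 FPKM with Antcin K, against 51.9 and 74.7 FPKM untreated. RXRB, the RXRβ dimer partner, followed at 47.8 and 41.0 FPKM with Antcin K, against 30.8 and 47.5 FPKM untreated. All 4 values of NR1H2 lay above all 4 of RXRB. The orphan receptor NR2F6 had 22.2 and 23.2 FPKM with Antcin K, against 25.7 and 29.8 FPKM untreated. ESRRA, the estrogen-related receptor α that drives mitochondrial genes, had 23.1 and 21.9 FPKM with Antcin K, against 16.5 and 24.3 FPKM untreated. NR2F6 and ESRRA overlapped in level, and both lay below every value of RXRB and above every value of the next gene, NR1D1, whose mean was 6.78 FPKM. Between 6.58 and 2.71 FPKM came RARG, THRA, PPARD, NR3C1, NR1D2, RXRA, PPARA and NR1H3, neighbours whose ranges overlapped.

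**Figure D1:**
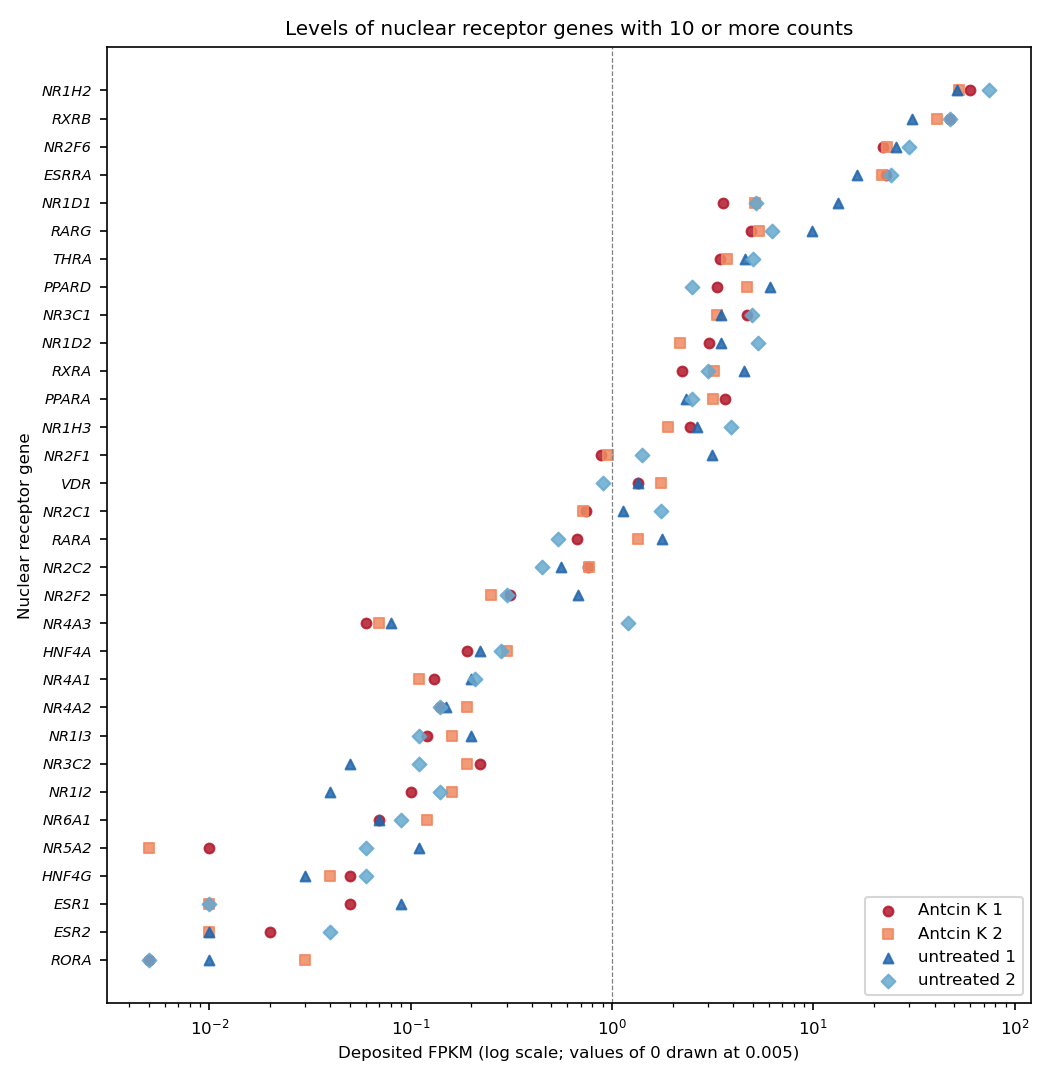
Deposited FPKM (log axis) of the 32 nuclear receptor genes with at least 10 counts over the 4 libraries, 1 symbol per library, ordered by mean. NR1H2, RXRB, NR2F6 and ESRRA stand apart at the top in every library, and NR4A3 has 1 library, untreated replicate 2, far above the other three.

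Under Antcin K, 27 of the 46 receptors could be tested, those past the edgeR filter on low counts, and none was called. The other 19 were below that filter. Among the 27, adjusted p ran from 0.366 to 0.947 (edgeR quasi-likelihood test, Benjamini-Hochberg over all genes), and across all 14717 tested genes the share called was 0%. At an unadjusted p under 0.05 edgeR listed 5 of the 27, or 18.5%, against 12.4% of all tested genes, and all 5 had a lower mean, a combination of 7.61% of all tested genes, against 4.76% for a higher mean. DESeq2 called 0 of the 22 members to which it gave an adjusted p (0.399% of all such genes), limma voom 0 (0%) and edgeR with a replicate block 0 (0.177%). The edgeR fit without the count filter took every gene with at least 1 count, so the 5 members with no count were not in it. It called 2 members, NR2F1 and NR4A3, where 0.723% of all such genes were called. Leaving out untreated replicate 1 gave 4 calls among the 27 (9.73% of all tested genes), leaving out untreated replicate 2 gave 10 (27%), and leaving out either Antcin K library gave 0 (0.0476% and 0.0204%). A block with the replicate numbers crossed, chosen after seeing the data, gave 5 (9.72%). Fold changes were Antcin K over untreated and ran on the log2 scale from -1.34 for NR2F1 to 1.34 for NR3C2, with a median of -0.23 over the 27 and of -0.05 over all tested genes. The median over the 27 was -0.43 without Antcin K replicate 2 and -0.12 with the GC trend removed. In 10 of the 27 (37.0%) both Antcin K libraries lay below both untreated ones, a pattern of 23.3% of all tested genes. In 3 of the 27 (11.1%) both lay above, against 22.6% of all tested genes. Because the filter decides which members enter, these counts only describe the 27.

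**Figure D2:**
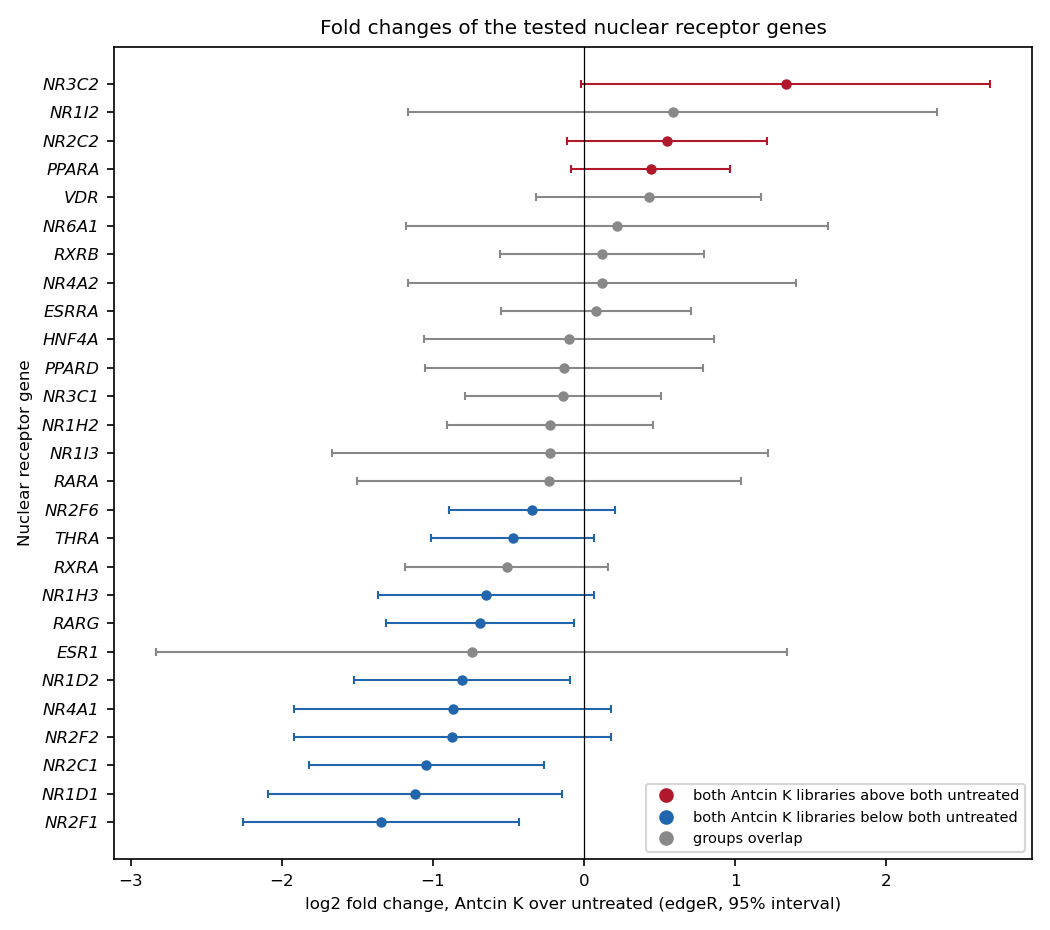
Log2 fold change, Antcin K over untreated, of the 27 tested nuclear receptor genes with 95% intervals from edgeR, coloured by whether the 2 libraries of each group overlap. Intervals of NR2F1, NR2C1, NR1D1, NR1D2 and RARG lie below 0, and those of all others span it.

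The REV-ERB receptors NR1D1 and NR1D2 both had lower means with Antcin K. They are heme-binding repressors of the circadian clock that hold down the clock activator gene ARNTL (BMAL1), and they are themselves switched on by CLOCK and BMAL1 through E-boxes, the motif CACGTG. The promoter windows below, from RefSeq on GRCh38.p14, run 5′ to 3′ on the strand of the gene from 250 bases before its start to 50 after. They set the REV-ERB pair beside NR2C1, whose window holds the motif. NR2C1 was picked for lower values in both Antcin K libraries at an unadjusted edgeR p under 0.05. NR2F2 holds the motif and had lower values in both Antcin K libraries too, but at an unadjusted edgeR p of 0.0924. Capitals mark CACGTG, which reads the same on both strands.
NR1D1 at chr17:40100540-40100839, minus strand: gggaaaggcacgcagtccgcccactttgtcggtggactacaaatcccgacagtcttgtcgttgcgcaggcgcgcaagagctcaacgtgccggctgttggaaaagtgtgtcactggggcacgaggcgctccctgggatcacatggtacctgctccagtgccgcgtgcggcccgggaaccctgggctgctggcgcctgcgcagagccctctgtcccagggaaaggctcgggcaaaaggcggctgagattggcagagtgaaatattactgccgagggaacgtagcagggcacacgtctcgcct
NR1D2 at chr3:23945871-23946170, plus strand: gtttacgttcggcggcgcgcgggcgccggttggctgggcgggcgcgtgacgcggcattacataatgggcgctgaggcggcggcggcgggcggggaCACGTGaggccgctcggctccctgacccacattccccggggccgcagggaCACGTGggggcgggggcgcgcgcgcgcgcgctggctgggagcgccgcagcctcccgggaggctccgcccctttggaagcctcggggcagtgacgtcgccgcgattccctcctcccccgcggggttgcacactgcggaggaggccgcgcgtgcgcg
NR2C1 at chr12:95073569-95073868, minus strand: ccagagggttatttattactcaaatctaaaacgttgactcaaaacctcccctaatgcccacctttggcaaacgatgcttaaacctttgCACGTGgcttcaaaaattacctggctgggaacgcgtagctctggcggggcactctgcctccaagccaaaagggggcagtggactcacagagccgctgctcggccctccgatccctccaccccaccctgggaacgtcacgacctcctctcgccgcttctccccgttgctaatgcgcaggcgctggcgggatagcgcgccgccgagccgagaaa
This window of NR1D2 belongs to 1 of its 2 listed starts and holds the motif from positions -155 and -105 relative to the start, that of NR2C1 holds it from position -162, and that of NR1D1 does not hold these letters. A match is a description of the letters, not of a factor bound there. Of the 24 tested receptors with a listed promoter, 4 held CACGTG in at least 1 window (NR1D2, NR2C1, NR2F2 and RARA), against 8.77% of the 27305 genes in the table. The receptor half-site AGGTCA, read with its reverse complement TGACCT, was in windows of 2 of those 24 (NR1H3 and RARA), against 16.5% of genes. A gene was counted if any of its windows matched, so genes with several listed starts had more chances. Per window, CACGTG was in 7.26% and the half-site in 13.8% of all 35116 windows. The number of windows per gene was not matched between the receptors and all genes, so these shares show no excess or lack.

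NR1D1 (chromosome 17, 40092793 to 40100589, minus strand, hg38) had 8.94 and 13.6 CPM with Antcin K, against 34.5 and 14.3 CPM untreated. These and all later CPM had library totals scaled by TMM, whereas FPKM used the unscaled count totals. Untreated replicate 1 stood apart, and untreated replicate 2 was only slightly above Antcin K replicate 2. The log2 fold change was -1.12 ± 0.42 (SE, edgeR, adjusted p = 0.377), and -0.35 without untreated replicate 1. NR1D2 (chromosome 3, 23945286 to 23980617, plus strand) had 16.9 and 12.7 CPM with Antcin K, against 19.8 and 32.2 CPM untreated. Here untreated replicate 2 was the highest, so the untreated libraries took opposite orders in the pair. The log2 fold change of NR1D2 was -0.81 ± 0.31 (SE, edgeR, adjusted p = 0.380), and -0.41 without untreated replicate 2. Summed per length, NR1D1 and NR1D2 came to 6.60 and 7.30 FPKM with Antcin K, against 16.7 and 10.5 FPKM untreated. NR1D1 overlaps THRA on the opposite strand over 1075 bases, and NR1D2 overlaps NKIRAS1. The strand setting of the counting is not given in the sources used here, so reads in such overlaps cannot be assigned with certainty. RORA, which competes with the REV-ERBs for the same elements as an activator, had 15 counts in all, and RORB none.

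Genes of the clock loop around the REV-ERBs had more lower than higher means, a balance that depended on untreated replicate 1. Of 15 tested clock genes, 0 were called by edgeR, and 10 had a lower and 5 a higher mean with Antcin K. The median log2 fold change was -0.31, against -0.05 over all tested genes. With untreated replicate 1 left out, the log2 fold change turned positive in NPAS2 (0.09), NFIL3 (0.09), CRY1 (0.16) and PER1 (0.36). Under the same omission CLOCK turned negative (-0.21). DBP, a clock output factor, had 15.6 and 20.6 CPM with Antcin K, against 42.2 and 28.95 CPM untreated (log2 fold change -0.98). PER3, a period gene, had 3.66 and 2.93 CPM with Antcin K, against 7.04 and 5.04 CPM untreated (-0.87). BHLHE41, the clock repressor DEC2, had 4.31 and 7.53 CPM with Antcin K, against 17.3 and 8.12 CPM untreated (-1.11, or -0.47 with untreated replicate 1 left out). In DBP, PER3 and BHLHE41 both Antcin K libraries were the lower ones. ARNTL, a REV-ERB target, had 9.91 and 9.74 CPM with Antcin K, against 6.02 and 7.06 CPM untreated (log2 fold change 0.59). With all 4 libraries, the log2 fold change was 0.05 for CLOCK, -0.45 for NPAS2, -0.31 for NFIL3 and -0.34 for CRY1. A link between the REV-ERB values and those of any clock gene was not tested. ARNTL and CRY2, the cryptochrome gene at 11.8 ± 0.530 CPM with Antcin K and 8.68 ± 0.242 CPM untreated (SD, n = 2 each), had both Antcin K libraries above both untreated ones. ARNTL, CRY2 and the genes given for a turned sign are outside the rule for named genes and were chosen after their values were seen. Adjusted p for DBP, PER3, BHLHE41, ARNTL and CRY2 was between 0.366 and 0.507 (edgeR).

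The COUP transcription factors NR2F1 and NR2F2, orphan repressors that guide mesenchymal and vascular development, had lower means with Antcin K. NR2F1 (chromosome 5, 93583222 to 93594611, plus strand) had 3.71 and 4.24 CPM with Antcin K, against 13.5 and 6.50 CPM untreated. The groups did not overlap, and untreated replicate 1 was the high one. Its log2 fold change of -1.34 ± 0.40 (SE) was the lowest of the family (edgeR, adjusted p = 0.366), passed without the count filter (edgeR, adjusted p = 0.0497), and was -0.71 without untreated replicate 1. NR2F1 overlaps NR2F1-AS1 on the opposite strand, which had 67 and 73 counts with Antcin K, against 100 and 72 untreated. NR2F2 had 1.899 and 1.61 CPM with Antcin K, against 4.37 and 2.02 CPM untreated. Its log2 fold change of -0.87 ± 0.46 (SE, edgeR, adjusted p = 0.461) rested on untreated replicate 1, without which it was -0.19. The third member, NR2F6, had 56.5 and 62.2 CPM with Antcin K, against 67.5 and 83.2 CPM untreated, with separate groups and a log2 fold change of -0.34 ± 0.24 (SE, edgeR, adjusted p = 0.566), or -0.19 with untreated replicate 2 left out. NR2F6 transcripts are 71.1% G and C, and with the trend on GC content removed the sign of its log2 fold change turned (0.17). NR2F6 exceeded NR2F1 in FPKM by 25.2 and 24.2 times with Antcin K, against 8.22 and 21.1 times in untreated cells.

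The testicular receptors NR2C1 and NR2C2, paralogous orphan receptors also known as TR2 and TR4, had means that differed in opposite directions. NR2C1 (chromosome 12, 95020229 to 95073628, minus strand) had 4.59 and 4.72 CPM with Antcin K, against 7.30 and 11.9 CPM untreated. The Antcin K libraries lay close together and below both others. Its log2 fold change was -1.04 ± 0.34 (SE, edgeR, adjusted p = 0.369), and -0.65 without untreated replicate 2. NR2C2 (chromosome 3, 14947583 to 15053600, plus strand) had 8.62 and 9.20 CPM with Antcin K, against 6.55 and 5.60 CPM untreated. Both Antcin K libraries lay above, for a log2 fold change of 0.55 ± 0.29 (SE, edgeR, adjusted p = 0.462) that stayed between 0.44 and 0.67 as each library was left out. Per length, NR2C1 stood at 0.974 and 0.935 times NR2C2 with Antcin K, against 2.04 and 3.91 times in untreated cells. NR2C2 overlaps FGD5-AS1 and MRPS25 on the opposite strand, which had 3976 and 1180 counts over the 4 libraries against 614 for NR2C2.

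**Figure D3:**
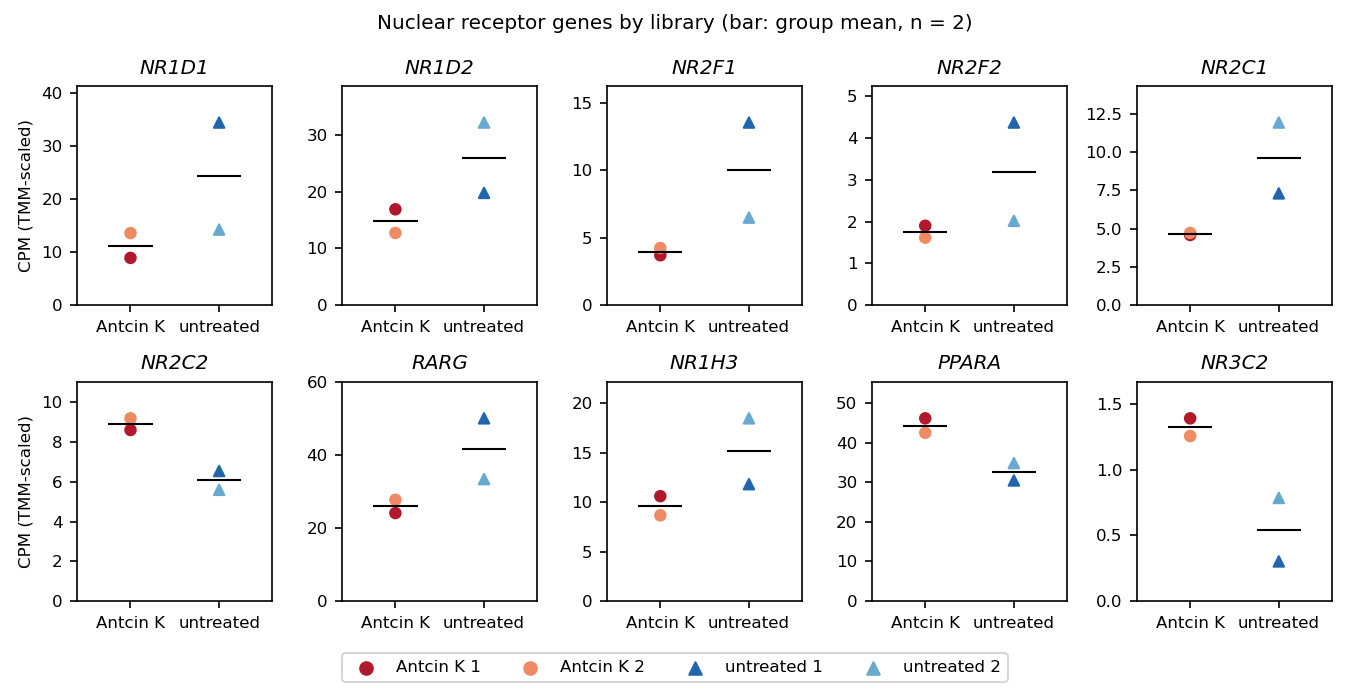
TMM-scaled CPM of 10 nuclear receptor genes in each library, with the mean of each group (n = 2) as a bar and axes starting at 0. The Antcin K libraries lie below both untreated libraries for 7 genes and above them for NR2C2, PPARA and NR3C2, and the higher untreated library is replicate 1 for NR1D1, NR2F1, NR2F2 and RARG and replicate 2 for NR1D2, NR2C1 and NR1H3.

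Among the retinoid receptors, RARG had a lower mean with Antcin K. RARG, the retinoic acid receptor most tied to cartilage and skin, had 24.1 and 27.7 CPM with Antcin K, against 50.0 and 33.4 CPM untreated. The groups did not overlap, and the log2 fold change was -0.69 ± 0.27 (SE, edgeR, adjusted p = 0.386), or -0.37 with untreated replicate 1 left out. RARA had 3.06 and 6.45 CPM with Antcin K, against 8.28 and 2.69 CPM untreated, with overlapping groups and a log2 fold change of -0.23 that turned to 0.81 without untreated replicate 1 and to 0.20 without Antcin K replicate 1. RARB had 5 counts in all. RXRA, a dimer partner, had 25.9 and 39.0 CPM with Antcin K, against 54.2 and 38.1 CPM untreated, so the groups overlapped. Its log2 fold change of -0.51 ± 0.29 (SE, edgeR, adjusted p = 0.492) was -0.23 with untreated replicate 1 left out and -0.26 with Antcin K replicate 1 left out. RXRB had 179 and 161 CPM with Antcin K, against 119 and 194 CPM untreated, an overlap with a log2 fold change of 0.12 (edgeR, adjusted p = 0.889) whose sign turned without untreated replicate 1 (-0.19). RXRB held 95.5% and 92.6% of the RXR FPKM with Antcin K, against 87.1% and 93.9% in untreated cells, and RXRG had 7 counts in all. RXRB overlaps SLC39A7 on the opposite strand.

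Genes that carry, make or clear retinoids gave a mixed picture. Of 6 tested genes of retinoid handling edgeR called 0, with 2 higher and 4 lower in mean and a median log2 fold change of -0.31. CRABP2, which carries retinoic acid to the nucleus, had 84.2 and 105 CPM with Antcin K, against 151 and 137 CPM untreated (log2 fold change -0.61). The retinol dehydrogenase genes DHRS9 and RDH10 had log2 fold changes of 0.97 and 0.78, and RDH10 ran between 0.35 without untreated replicate 2 and 1.45 without untreated replicate 1. Both groups were separate in CRABP2, DHRS9 and RDH10. Of 5 tested retinoic acid targets, CRABP2 again among them, edgeR called 0, with 1 higher and 4 lower in mean and a median of -0.29. TGM2, tissue transglutaminase, had 4 and 5 counts with Antcin K, against 21 and 20 untreated (log2 fold change -1.97). Adjusted p of the 4 genes named in these 2 lists was between 0.369 and 0.465 (edgeR).

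Values of the lipid sensors varied by subtype. PPARA, the fatty acid sensor of oxidation genes, had 46.1 and 42.5 CPM with Antcin K, against 30.4 and 34.8 CPM untreated. Both Antcin K libraries lay above, with a log2 fold change of 0.44 ± 0.23 (SE, edgeR, adjusted p = 0.458), and 0.21 with the GC trend removed. PPARD, the widely expressed PPAR, had 14.1 and 21.2 CPM with Antcin K, against 26.8 and 11.7 CPM untreated. Its groups overlapped, and the log2 fold change of -0.13 turned to 0.59 without untreated replicate 1 and to 0.11 without Antcin K replicate 1. PPARG, the fat-cell PPAR, had no count in any library. Of 13 tested PPAR targets edgeR called 0, while 11 had a higher and 2 a lower mean, and the median log2 fold change was 0.42, against -0.05 over all tested genes. SLC25A20, the carnitine carrier of mitochondria, had 17.2 and 16.6 CPM with Antcin K, against 6.47 and 12.6 CPM untreated (log2 fold change 0.83, or 0.42 with untreated replicate 1 left out). CPT1A, the rate-limiting carnitine transferase, had 89.6 and 110 CPM with Antcin K, against 73.9 and 69.1 CPM untreated (0.48). CD36, a fatty acid receptor, had 11 and 6 counts with Antcin K, against 30 and 16 untreated (-1.20). Groups were separate in all of these, and their adjusted p was between 0.392 and 0.445 (edgeR). Of the 13 targets 6 had both Antcin K libraries above, a pattern of 22.6% of all tested genes, and 1 had both below, a pattern of 23.3%. Of the 11 with a higher mean, PLIN2 turned to -0.39 without untreated replicate 1 and PDK4 to -0.68 without untreated replicate 2. ACADVL, whose 0.42 was the median of the targets, was 0.06 without untreated replicate 1. PLIN2, PDK4 and ACADVL are outside the rule for named genes.

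NR1H3, the liver X receptor α, had 10.6 and 8.66 CPM with Antcin K, against 11.8 and 18.5 CPM untreated. Both Antcin K libraries were lower, and untreated replicate 2 stood highest. The log2 fold change was -0.65 ± 0.31 (SE, edgeR, adjusted p = 0.435), or -0.29 with untreated replicate 2 left out, and the gene overlaps ACP2 on the opposite strand. NR1H2 had 308 and 286 CPM with Antcin K, against 274 and 419 CPM untreated, an overlap with a log2 fold change of -0.22 (edgeR, adjusted p = 0.778) that turned to 0.12 without untreated replicate 2. Per length, NR1H2 exceeded NR1H3 by 24.7 and 28.0 times with Antcin K, against 19.7 and 19.3 times in untreated cells. The bile acid receptor gene NR1H4 had 5 counts in all. Of 8 tested liver X receptor targets edgeR called 0, with 3 higher and 5 lower in mean and a median log2 fold change of -0.15. SMPDL3A, a phosphodiesterase gene, had 0.695 and 1.79 CPM with Antcin K, against 0.677 and 0.392 CPM untreated (log2 fold change 1.15, or 0.37 with Antcin K replicate 2 left out). CETP, the cholesteryl ester transfer protein gene, had -0.95 on that scale, or -0.52 with untreated replicate 2 left out. MYLIP, the degrader of the LDL receptor, had 0.50, or 0.26 with Antcin K replicate 1 left out. Adjusted p of these 3 lay between 0.477 and 0.567 (edgeR).

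Of the classical steroid receptors, the glucocorticoid receptor gene NR3C1 was the one well expressed. NR3C1 had 41.0 and 30.7 CPM with Antcin K, against 31.6 and 47.5 CPM untreated. The groups overlapped, and the log2 fold change was -0.14 with a 95% interval of -0.79 to 0.51 (edgeR, adjusted p = 0.862). Its sign turned without Antcin K replicate 2 (0.09), without untreated replicate 2 (0.18) and with the GC trend removed (0.01). NR3C2, the mineralocorticoid receptor gene (chromosome 4, 148078762 to 148444698, minus strand), had 30 and 21 counts with Antcin K, against 8 and 14 untreated. That was 1.39 and 1.25 CPM with Antcin K, against 0.301 and 0.784 CPM untreated, with both Antcin K libraries above. Its log2 fold change of 1.34 ± 0.59 (SE) was the highest of the family (edgeR, adjusted p = 0.409), and was 0.75 without untreated replicate 1. Per length, NR3C1 exceeded NR3C2 by 21.2 and 17.5 times with Antcin K, against 69.8 and 44.9 times in untreated cells. The estrogen receptor gene ESR1 had 14 and 3 counts with Antcin K, against 32 and 3 untreated, and overlaps SYNE1 on the opposite strand, which had 779 counts over the 4 libraries. ESR2 had 18 counts in all and PGR, the progesterone receptor gene, 3.

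A list around the chaperones that hold steroid receptors ready for ligand had more genes with higher means than lower. Of its 15 tested genes edgeR called 0, with 11 higher and 4 lower in mean. The median log2 fold change was 0.30, against -0.05 over all tested genes. The list is wider than chaperones. Its lower genes were the heat shock factor HSF1 (-0.65), the ubiquitin ligase STUB1, PTGES3 (-0.06) and the chaperone gene HSP90AA1. HSP90AA1 had 190 and 148 CPM with Antcin K, against 308 and 196 CPM untreated, with separate groups. The log2 fold change of HSP90AA1 was -0.57, or -0.21 with untreated replicate 1 left out, while HSP90AB1 had 0.15 with overlapping groups. HSF1, PTGES3, HSP90AA1 and HSP90AB1 are outside the rule for named genes. HSPA1A, an inducible HSP70 gene with a near-identical copy that makes its counts uncertain, had 179 and 208 CPM with Antcin K, against 102 and 106 CPM untreated (log2 fold change 0.90). BAG1, a cochaperone, had 17.3 and 15.6 CPM with Antcin K, against 8.58 and 11.5 CPM untreated (0.72). STUB1, the ubiquitin ligase CHIP, had 184 and 164 CPM with Antcin K, against 231 and 370 CPM untreated (-0.79, or -0.41 with untreated replicate 2 left out). Groups were separate in HSPA1A, BAG1 and STUB1, and their adjusted p was between 0.366 and 0.381 (edgeR). Both Antcin K libraries were above in 7 of the 15, a pattern of 22.6% of all tested genes, and below in 3, a pattern of 23.3%.

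Targets of the glucocorticoid receptor were mixed in direction of their means. Of 11 tested targets edgeR called 0, with 5 higher and 6 lower in mean and a median log2 fold change of -0.28. DUSP1, a phosphatase of MAP kinases, had 29.6 and 30.1 CPM with Antcin K, against 12.7 and 17.9 CPM untreated (log2 fold change 0.97, edgeR, adjusted p = 0.366). SGK1, a kinase gene induced by both corticoid receptors, had 30.4 and 32.6 CPM with Antcin K, against 38.3 and 45.3 CPM untreated (-0.41). The groups were separate in DUSP1 and SGK1, whereas MT2A, a metallothionein gene, overlapped at 206 and 456 CPM with Antcin K, against 667 and 364 CPM untreated. Of 7 tested estrogen receptor targets edgeR called 0, with 4 higher and 3 lower in mean and a median log2 fold change of 0.19. GREB1 had a log2 fold change of 0.47, PDZK1 of -0.65 and CTSD, the cathepsin D gene, of 0.24, which turned to -0.047 without untreated replicate 2. Leaving out Antcin K replicate 2 gave 0.15 for GREB1 and -0.26 for PDZK1. Of 15 tested genes that make or modify steroid and sterol ligands edgeR called 0, with 7 higher and 8 lower in mean and a median of -0.08. HSD3B7, an enzyme of bile acid synthesis from oxysterols, had 15.0 and 15.4 CPM with Antcin K, against 23.8 and 31.0 CPM untreated (log2 fold change -0.85). HSD17B7 and SRD5A1, which act in sterol and androgen metabolism, had log2 fold changes of 0.51 and -0.59, or 0.28 and -0.32 with untreated replicate 1 left out. Groups were separate in these 3 enzymes, with adjusted p between 0.366 and 0.492 (edgeR).

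THRA, the thyroid hormone receptor α, had 24.2 and 27.7 CPM with Antcin K, against 33.1 and 38.8 CPM untreated. The groups were separate, with a log2 fold change of -0.47 ± 0.24 (SE, edgeR, adjusted p = 0.446), and values of -0.58 to -0.35 as each library was left out. THRA shares its 3′ end with NR1D1 on the other strand and overlaps MED24 as well. VDR, the vitamin D receptor, had 7.36 and 10.1 CPM with Antcin K, against 7.53 and 5.38 CPM untreated, an overlap with a log2 fold change of 0.43 (edgeR, adjusted p = 0.599). The VDR value was 0.21 without Antcin K replicate 2 and likewise 0.21 without untreated replicate 2. Enzymes that set the ligands of both receptors included genes with low counts under Antcin K. CYP24A1, the vitamin D 24-hydroxylase and a standard target of VDR, had 2 and 3 counts with Antcin K, against 42 and 11 untreated (log2 fold change -3.03, edgeR, adjusted p = 0.366, a fitted value that depends on the prior count at such low counts). DIO2, the deiodinase that activates thyroid hormone, had 24 and 16 counts with Antcin K, against 113 and 53 untreated (log2 fold change -1.80, edgeR, adjusted p = 0.366). CYP27B1, which makes active vitamin D, had 25 and 32 counts with Antcin K, against 66 and 45 untreated (log2 fold change -0.72, or -0.40 with Antcin K replicate 1 left out). Groups were separate in all of them, and CYP24A1 and DIO2 passed in edgeR without the count filter. Of the 6 tested genes in this list 3 had a lower and 3 a higher mean, and edgeR called 0 (median log2 fold change -0.31).

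Of 5 tested VDR targets, CYP24A1 included, edgeR called 0, with 2 higher and 3 lower in mean and a median log2 fold change of -0.07. SPP1, osteopontin, had 21.5 and 19.4 CPM with Antcin K, against 36.1 and 21.3 CPM untreated, a slight overlap with a log2 fold change of -0.49, or -0.06 with untreated replicate 1 left out, and TRPV6, a calcium channel gene, had a log2 fold change of 0.75, or 0.19 with untreated replicate 1 left out. All 5 tested thyroid hormone targets had lower means with Antcin K, with a median of -0.52 and 0 calls by edgeR. SLC2A4, at -0.26, turned to 0.26 with Antcin K replicate 2 left out. KLF9, whose value was the median, was -0.04 with untreated replicate 1 left out. SLC2A4 and KLF9 are outside the rule for named genes. HR, a corepressor of THRA and VDR, had 34 and 22 counts with Antcin K, against 161 and 42 untreated (log2 fold change -1.55, or -0.69 with untreated replicate 1 left out). BCL3 had a log2 fold change of -1.69 with overlapping groups, or -0.36 with untreated replicate 1 left out. ME1, malic enzyme, had 18.8 and 19.2 CPM with Antcin K, against 23.9 and 28.3 CPM untreated, with separate groups.

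ESRRA had 68.5 and 68.5 CPM with Antcin K, against 50.5 and 79.2 CPM untreated. Its groups overlapped, and the log2 fold change of 0.08 (edgeR, adjusted p = 0.923) turned to -0.21 without untreated replicate 1. It overlaps TRMT112 on the opposite strand, which had 23436 counts over the 4 libraries against 5381 for ESRRA. ESRRB and ESRRG had 1 count each. Of 11 tested genes in the list of ERR and PGC-1 targets, ESRRA included, edgeR called 0, with 7 higher and 4 lower in mean and a median log2 fold change of 0.14. ACADM, SDHB and COX5B, genes of fatty acid oxidation and respiration, had log2 fold changes of -0.61, 0.38 and -0.47 with separate groups. ACADM was -0.31 without Antcin K replicate 2 and -0.33 without untreated replicate 1, SDHB 0.16 without untreated replicate 1 and COX5B -0.15 without untreated replicate 2. The nutrient sensor HNF4A had 39 and 52 counts with Antcin K, against 59 and 54 untreated, and HNF4G had 17 in all. The xenobiotic receptors NR1I2 and NR1I3 had 45 and 41 counts over the 4 libraries, both with overlapping groups. NR1I3 overlaps TOMM40L on the opposite strand, which had 4362 counts over the 4 libraries.

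The NR4A receptors, immediate early genes without a classical ligand, were low. NR4A1 had 19 and 13 counts with Antcin K, against 38 and 29 untreated. That was 0.880 and 0.777 CPM with Antcin K, against 1.43 and 1.62 CPM untreated, with separate groups and a log2 fold change of -0.87 ± 0.46 (SE, edgeR, adjusted p = 0.462). NR4A2 had 12 and 13 counts with Antcin K, against 16 and 11 untreated. NR4A3 had 8 and 7 counts with Antcin K, against 13 and 142 untreated, so a single library held most of its counts. NR4A3 was below the count filter, and without that filter edgeR called it (adjusted p = 0.0132) on that library. Of 9 tested immediate early genes outside the family edgeR called 0, with 5 higher and 4 lower in mean and a median log2 fold change of 0.04. ATF3 and JUN, stress-responsive factors, had log2 fold changes of 0.66 (0.38 with untreated replicate 1 left out) and 0.29, and in these and in DUSP1, given above, both Antcin K libraries were the higher ones.

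The rest of the family was scarcely present. NR6A1, the germ cell nuclear factor, had 10 and 15 counts with Antcin K, against 13 and 12 untreated. NR5A2, a phospholipid-binding receptor of liver and gut, had 1 and 0 counts with Antcin K, against 21 and 8 untreated, and stayed below the filter. The steroidogenic factor gene NR5A1 had 9 counts over the 4 libraries, NR2E3 1 and NR0B2 1. NR0B2 lies opposite NUDC, which had 33752 counts.

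Coregulators, the partners through which ligand-bound or empty receptors switch genes on or off, had means in both directions. Of 20 tested coactivators edgeR called 0, with 9 higher and 11 lower in mean and a median log2 fold change of -0.14. NCOA4 had 254 and 197 CPM with Antcin K, against 108 and 176 CPM untreated (log2 fold change 0.67). PRMT1, an arginine methyltransferase, had 490 and 431 CPM with Antcin K, against 558 and 926 CPM untreated (-0.69). MED1, the Mediator subunit that docks on receptors, had 55.5 and 44.8 CPM with Antcin K, against 36.4 and 38.3 CPM untreated (0.43). Groups were separate in these 3, with adjusted p between 0.423 and 0.478 (edgeR). NCOA4 was 0.36 without untreated replicate 1, PRMT1 -0.28 without untreated replicate 2 and MED1 0.24 without Antcin K replicate 1. Of 14 tested corepressors edgeR called 0, with 4 higher and 10 lower in mean and a median of -0.11. TBL1XR1, a subunit of nuclear receptor corepressor complexes, had 11.8 and 13.5 CPM with Antcin K, against 17.4 and 22.8 CPM untreated (log2 fold change -0.67), and was separate between groups. Over all 155 distinct tested list genes outside the family edgeR called 0, with 76 higher and 79 lower in mean and a median of -0.02, and 17 (11.0%) had an unadjusted p under 0.05, against 12.4% of all tested genes.

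**Figure D4:**
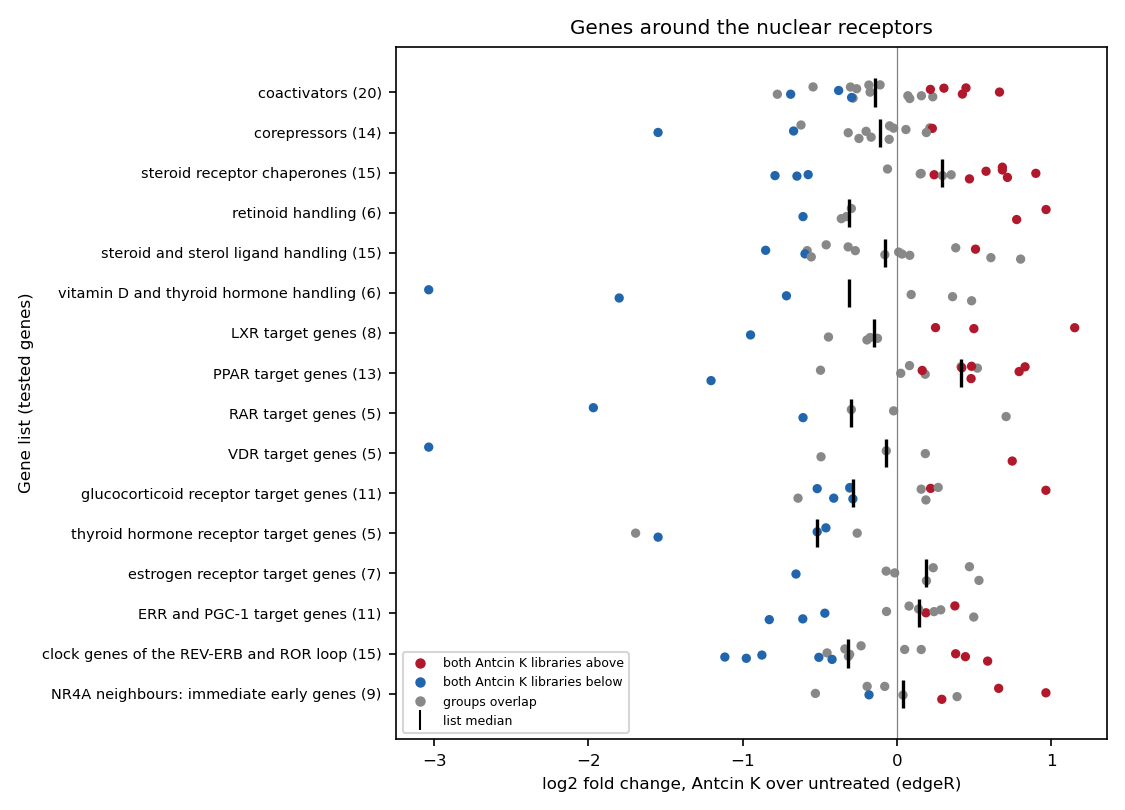
Log2 fold change, Antcin K over untreated, of each tested gene in 16 lists around the nuclear receptors, with the list median as a vertical bar and the number of tested genes in parentheses. Medians lie between -0.52 for thyroid hormone targets and 0.42 for PPAR targets, and CYP24A1, at -3.03, is the lowest point.

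How far these differences held depended on which untreated library was used. Of the 27 tested receptors 8 differed by over 2-fold between the untreated libraries, or 29.6% against 16.2% of all tested genes, and 6 of the 8 were higher in untreated replicate 1. Between the Antcin K libraries 2 differed by as much. The sign of the log2 fold change was kept in 15 of the 27 (55.6%) as each library was left out in turn, 4 higher and 11 lower, against 57.4% of all tested genes. Without untreated replicate 1 the sign turned in 8, RXRB, ESRRA and PPARD among them. With 2 libraries a group, an exact two-sided permutation test of a single gene cannot go below p = 0.333, so the tests rest on the spread that edgeR shares across genes.

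**Figure D5:**
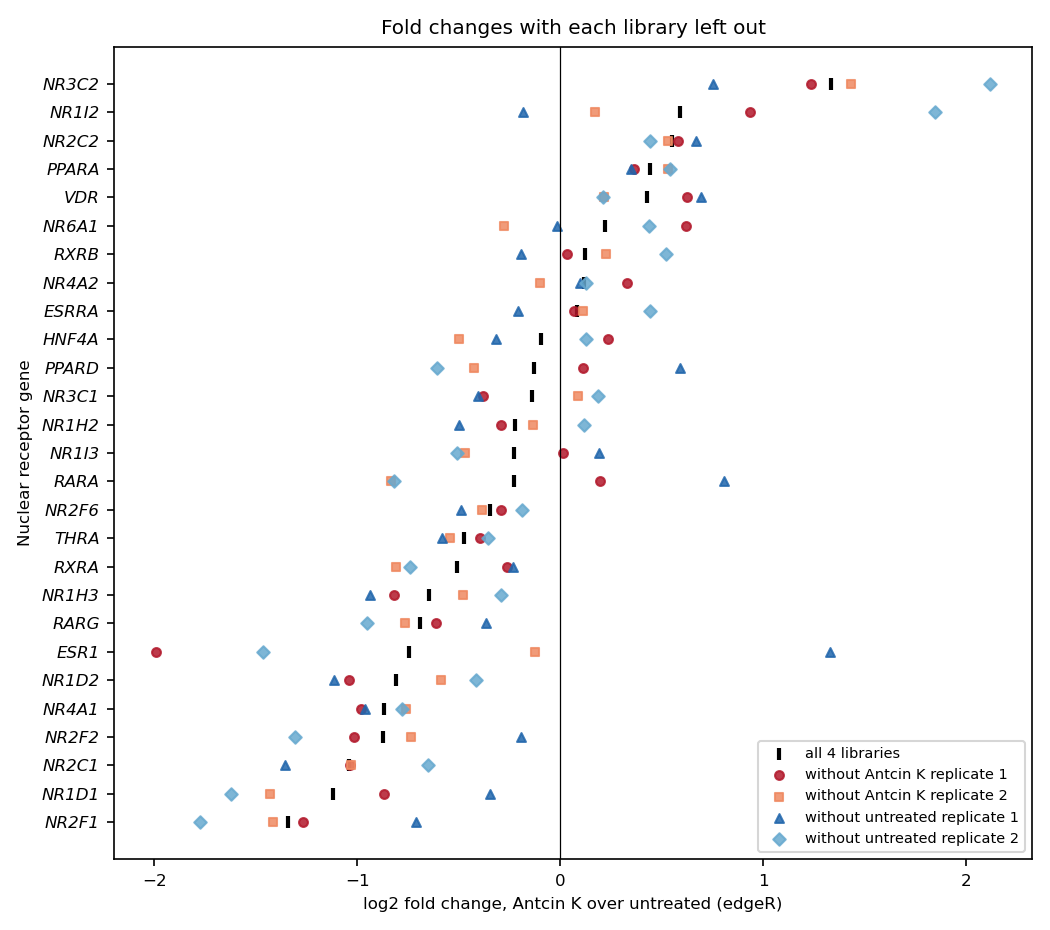
Log2 fold change, Antcin K over untreated, of the 27 tested nuclear receptor genes with all 4 libraries (black bar) and with each library left out (coloured symbols). THRA, NR1D2, NR2C1 and NR4A1 stay on the left of 0 and PPARA and NR2C2 on the right under each omission, while NR1D1 runs from -1.62 to -0.35 and ESR1 crosses 0.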

How the data were processed

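RNA from 4 JJ012 samples was sequenced on an Illumina NovaSeq instrument as paired ends, per the labels. The submitters' processing notes name cutadapt 1.9.1, HISAT2 2.2.1, HTSeq 0.6.1 and hg38, and the strand setting is not given in the sources used here. The authors deposited whole-number counts and FPKM per gene for each sample. The FPKM followed from the counts, gene lengths and count totals to within 0.005. FPKM served to compare genes with each other. Marker levels and summed levels were also given in FPKM for both groups. TMM-scaled CPM, computed here, served to compare receptors and list genes between groups. Totals were 16911257 to 26270686 counts. The 14717 genes past edgeR's filterByExpr (minimum count 10) were tested with edgeR 4.0.16 (robust quasi-likelihood test, TMM scaling, Benjamini-Hochberg adjustment, threshold 0.05) in R 4.3.3, Antcin K against untreated without a block. Alternatives were DESeq2 1.42.0, limma voom 3.58.1, other scalings and filters, the replicate number as a block, and each library left out. In data simulated on the 14717 genes with 200 changed, edgeR recovered 13.4% of 2-fold, 89.6% of 4-fold and 95.5% of 8-fold changes. It made 18 false calls. Those rates describe the simulation alone and do not show that a 4-fold change would be found in these libraries. Among the measured genes none was called, not even CYP24A1 at a log2 fold change of -3.03 (edgeR, adjusted p = 0.366). The spread was large, with a median biological coefficient of variation of 24.5%. The family members and the 16 lists of 218 symbols were chosen with earlier results of these data known. Full statistics are given for the 14 tested members with the lowest p and the 6 with the highest FPKM, and up to 3 genes per list were named by lowest p, of which 2 are not reported here. Promoter windows came from RefSeq on GRCh38.p14, in which 41 of the 46 members matched by symbol.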

Additional observations from a re-analysis of the deposited data

How the results depend on the processing

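Against 0 genes called by edgeR as reported, 208 were called without the count filter, 53 by DESeq2, and 3 to 3971 as each library was left out (7 without Antcin K replicate 1, 3 without Antcin K replicate 2, 1432 without untreated replicate 1, 3971 without untreated replicate 2). Leaving out an untreated library leaves 1, which is then assumed to vary like the other group. Receptors called numbered 2 without the filter and 0 to 10 across the omissions. The 4 called without untreated replicate 1 were NR1D2, NR1H2, NR1H3 and NR2C1, and the 10 called without untreated replicate 2 were RARA, RARG, PPARA, PPARD, NR1D1, RXRA, RXRB, NR2F1, NR2F2 and NR3C2, so no receptor was called in both. The median log2 fold change of the tested receptors was -0.43 to -0.21 across the omissions (-0.43 without Antcin K replicate 2) and -0.30 to -0.12 under the other settings. With the replicate number as a block 26 genes and 0 receptors were called. The titles do not say that the replicate numbers mark a shared culture or day, so the numbers were not taken to pair the samples. Same-numbered samples deviated in opposite directions (correlation -0.32). With 2 libraries a group the crossed pairs give the mirror value (0.32), so this does not show how samples were paired. A crossed replicate block, chosen after seeing the data, called 1430 genes and 5 receptors (RARG, NR1D1, NR1D2, NR2C1 and NR2F1). Removing a trend on GC content, also chosen after seeing the data, called 0. Among the lists, the fit without the filter called 2 genes of vitamin D and thyroid hormone handling and 1 VDR target. The crossed replicate block called 3 genes of the chaperone list. It called 2 genes each of steroid and sterol handling, vitamin D and thyroid hormone handling, thyroid hormone targets and clock genes. It called 1 each of corepressors, retinoid handling, PPAR, VDR and glucocorticoid receptor targets and immediate early genes. Across the omissions called list genes ran from 0 to 11 for chaperones, 0 to 6 for clock genes, 0 to 5 for steroid and sterol handling, 0 to 4 for ERR and PGC-1 targets, 0 to 3 for coactivators, corepressors and PPAR targets, 0 to 2 for retinoid handling, vitamin D and thyroid hormone handling and VDR, glucocorticoid and thyroid hormone receptor targets, and 0 to 1 for RAR and estrogen receptor targets and immediate early genes. Among the named genes with full statistics whose sign turned, the omissions gave log2 fold changes of -0.50 to 0.12 for NR1H2, -0.19 to 0.52 for RXRB, -0.21 to 0.44 for ESRRA and -0.047 to 0.59 for CTSD, and NR2F6 had 0.17 with the GC trend removed. Over the 59 named genes, 748 of 819 values kept direction and side of the threshold, 66 newly passed it and 5 turned. Receptors counted as detected were 36 at 5 counts and 29 at 20 counts. The cause of these shifts was not tested. Of the receptors below the count filter, NR4A3 passed and NR5A2 did not (edgeR without the filter, adjusted p = 0.0132 and 0.0762), while the 5 with no count and the 9 with 1 to 9 counts had too few to show a difference at this depth.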
